A study of Homo sapiens with 8 samples.

Results

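The DEAD box and DEAH box helicases are proteins named for the amino acids of a shared motif, and most of their human genes carry the prefixes DDX and DHX. All rows of the deposited expression table whose symbol starts with DDX or DHX followed by a digit were taken. DDX3Y, hyphenated symbols and symbols that end in P and a number were left out. This gave 59 of 25593 gene rows, of which 51 reached 1 FPKM in 2 or more of the 8 libraries and were tested. FPKM counts fragments relative to transcript length and to all mapped fragments of the library, so levels can be compared between genes. The 8 rows that were not tested are DDX4, DDX25, DDX43, DDX53, DDX60, DDX11L2, DDX11L9 and DDX11L10. DDX12P and the DDX11L rows are copies that share sequence with DDX11, so their values and that of DDX11 are uncertain. Without them 55 rows remained, 50 of them tested, and the call counts for the drug were the same.

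These proteins use ATP to open short RNA duplexes, to strip proteins from RNA or to clamp onto it. DEAD box proteins mostly melt short helices in place, while the DEAH box proteins of the spliceosome and ribosome assembly act by pulling on single strands and are switched on by partners with a G-patch domain. Many act in the nucleolus on precursors of ribosomal RNA, whose production MYC promotes in growing leukaemia cells, and others work at splicing, export, translation, decay and the sensing of viral RNA.

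Gene expression was measured in HL60, a promyelocytic leukaemia line known for its amplified MYC gene, and in Kasumi-1, a myeloid leukaemia line known for the RUNX1-RUNX1T1 fusion. Cells of each line were grown untreated or in 100 nM cinobufagin for 24 h. Cinobufagin is a toad venom steroid that inhibits the sodium pump (Na+/K+-ATPase). The 4 groups held 2 libraries each, made with a kit for poly(A) RNA that keeps strand. HL60 grew in 10% and Kasumi-1 in 20% fetal bovine serum, so serum and line cannot be told apart, and each line is a single cell line. No genetic change other than those of the lines is named in the labels. The series title speaks of repression of c-Myc pathway genes, and MYC fell from 786 and 749 FPKM to 30.3 and 29.2 in HL60 and from 308 and 310.1 to 199 and 202 in Kasumi-1.

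The libraries matched the line labels, with RUNX1T1 and CD34 listed at 0 in all HL60 libraries. Of 9 markers of the lines, 6 fell and 1 rose with the drug in HL60, where MPO, a granule gene of myeloid precursors, went from 3285 and 3369 to 245 and 274 FPKM. Of 19 markers of other cell types, 3 passed the filter on low values (CD79A, EPCAM and VIM), and HBB, MS4A1 and PF4 were listed at 0 in all 8 libraries. Their summed level was 69.7 and 70.9 FPKM in untreated HL60 and 237 and 255 after the drug, nearly all of it VIM, a filament gene of mesenchymal and many blood cells. In Kasumi-1 it was 78.9 and 79.9 untreated and 74.1 and 76.8 treated, nearly all of it EPCAM. The part of these shifts in the HL60 values below was not tested, and fewer cells of a type cannot be told apart from less RNA per cell. Between 10623 and 11371 genes per library reached 1 FPKM, and the relative depth lay between 0.787 and 1.06. Short RNAs took 10.1% to 15.4% of summed FPKM in the replicate 1 libraries, and in the replicate 2 libraries 20.5% in untreated Kasumi-1 and 55.5% to 59.2% in the other groups. The labels do not state whether the paired libraries of a group are separate cultures, and the p-values here rest on the scatter of those libraries alone, which may be technical.

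In HL60, cinobufagin lowered 13 of 16 helicases of ribosome assembly and raised 0, while the 3 co-regulators of transcription all rose. Splicing helicases and those of export, translation and decay held calls in both directions. Of 10 splicing helicases 4 rose and 5 fell, and of 10 in export, translation and decay 5 rose, among them DDX3X, DDX6 and DDX39B, and 3 fell (DDX1, DDX19A and DDX19B). Of the 51 tested members, 26 fell and 15 rose (limma on log2(FPKM + 1), Benjamini-Hochberg over all 12511 genes tested, adjusted p under 0.05). The drug moved most of the transcriptome in this line: 73.6% of all tested genes were called, 37.6% lower and 36% higher. Read against that, the members' 51% lower and 29.4% higher lean towards falls. Their median log2 change was −0.19, against −0.01 over all tested genes. By at least 2-fold, 6 members fell and 3 rose, against a background of 14.1% and 11.9%.

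The smaller changes depended on scaling. When each library was rescaled to a total taken without short RNAs (small nucleolar and similar RNAs), the median over all genes in HL60 moved from −0.01 to 0.09. Then 16 members were higher and 18 lower, with 47.1% of the members' calls higher, against 36.6% before. Over all tested genes the share of calls that were higher also rose, from 48.9% to 56.8%. FPKM is relative within a library, so a change in total RNA per cell would not be seen. With the replicate number as a block, 16 were higher and 29 lower, and all 41 calls were kept. Calls over all tested genes also rose with the block, to 4794 higher and 4993 lower, from 4505 and 4707.

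In Kasumi-1 most called members also fell: 22 of the 51 were lower and 1, DDX17, was higher. Over all tested genes 26.3% were called, 16.2% lower and 10.1% higher, against 43.1% of members lower. The median log2 change of the members was −0.17, against −0.04 over all genes. By at least 2-fold 0 members fell and 0 rose, against 0.256% and 0.32% of all tested genes. The largest fall was 0.57 (DHX33), and the largest rise among calls 0.20. This count depended on single libraries. It was smaller without any 1 Kasumi-1 library, in fits that leave 1 library in a group, and so was the count of falls over all tested genes. DDX1, DDX18, DDX20, DDX28, DDX49 and DHX33 were called lower in each of the 16 alternative settings run. With the replicate block, 27 members were lower and 2 higher, and all 23 calls were kept. Calls over all 12511 tested genes also rose with the block, to 2882 lower and 1867 higher, from 2026 and 1266.

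**Figure D1:**
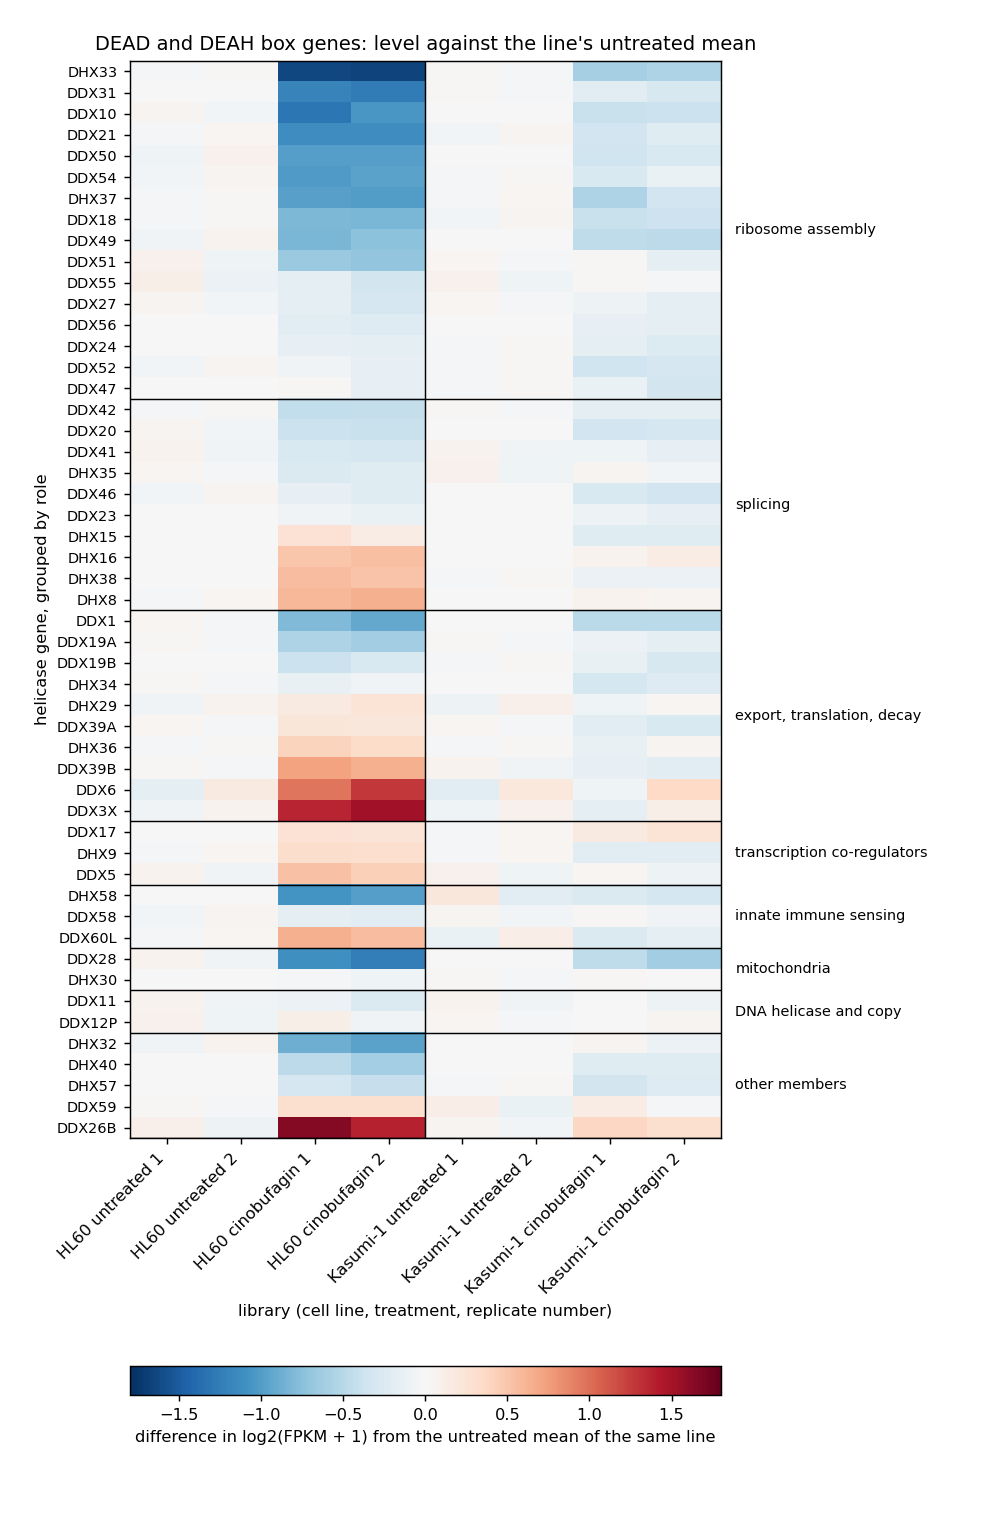
Difference of each of the 51 tested helicase genes from its mean in the untreated libraries of the same line, in log2(FPKM + 1), for 8 libraries (columns), with genes in rows grouped by role. Blue is lower and red is higher. Both treated HL60 libraries are dark blue in the upper rows, those of ribosome assembly from DHX33 to DDX51, and the treated Kasumi-1 libraries are pale blue in most of them.

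Ribosome assembly drew the largest group of falls. Of 16 helicases that act on pre-ribosomes, 13 fell in HL60 with a median of −0.80, and 11 fell in Kasumi-1 with a median of −0.26 (81.2% and 68.8%, against 37.6% and 16.2% of all tested genes). Estimates of all 16 were below 0 in both lines, and limma called 0 higher in either. At an unadjusted p under 0.05 also 0 were higher, and 14 were lower in HL60 and 13 in Kasumi-1. The list of these 16 was made with earlier results of these data known, so the shared direction is not independent evidence. DHX15, listed with the splicing helicases, also acts on pre-ribosomes and rose in HL60 (0.20). The Kasumi-1 count of 11 was smaller without any 1 Kasumi-1 library, in fits that leave 1 library in a group. The count of falls over all tested genes was smaller there too. After the rescaling without short RNAs, 10 fell in HL60 (median −0.62) and 8 in Kasumi-1, and 0 rose in either. Their summed level went from 546 and 554 FPKM to 355 and 346 in HL60, from 29.2% and 29.8% of all helicase FPKM to 17.9% in both treated libraries. In Kasumi-1 the sum went from 540 and 552 FPKM to 449 and 456.

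DHX33, which promotes ribosomal RNA synthesis and translation, had the largest fall of all members. It was at 9.29 and 9.57 FPKM in untreated HL60 and at 2.34 and 2.28 after cinobufagin, which is −1.66 on the log2 scale (SE 0.06, limma adjusted p = 1.38e-06). In Kasumi-1 it went from 7.60 and 7.34 to 4.61 and 4.76 FPKM, a change of −0.57 (SE 0.06, limma adjusted p = 0.00242). The drug groups did not overlap in either line, and treated HL60 was below treated Kasumi-1 although untreated HL60 was above untreated Kasumi-1. DDX31, a nucleolar helicase of the large subunit, went from 11.1 and 11.0 to 4.22 and 4.05 FPKM in HL60 (−1.23, SE 0.06, limma adjusted p = 4.43e-06). It went from 13.7 and 13.2 to 11.6 and 10.9 FPKM in Kasumi-1 (−0.24, SE 0.06, limma adjusted p = 0.0292). That Kasumi-1 call was lost in 9 of 16 alternative settings, among them on leaving out any 1 Kasumi-1 or untreated HL60 library.

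DDX21 unwinds RNA in the nucleolus and supports both transcription of ribosomal RNA and its processing. Its level was 101 and 105 FPKM in untreated HL60 and 46.9 and 47.0 after the drug. On the log2 scale this was −1.12 (SE 0.06, limma adjusted p = 7.85e-06), and the treated HL60 libraries were the lowest of the 8. Kasumi-1 held 122 and 131 FPKM untreated and 99.3 and 109 treated (−0.28, SE 0.06, limma adjusted p = 0.0210), so treated Kasumi-1 overlapped untreated HL60. DDX50, the paralogue of DDX21, went from 28.0 and 31.2 to 14.4 and 14.4 FPKM in HL60 (−0.99, SE 0.06, limma adjusted p = 1.40e-05). In Kasumi-1 it went from 47.3 and 47.2 to 36.8 and 39.1 FPKM (−0.31, SE 0.06, limma adjusted p = 0.0157). For both paralogues the drug groups did not overlap in either line. The Kasumi-1 falls were not called without untreated replicate 2 or treated replicate 1, and that of DDX50 also not without untreated replicate 1. Both were also lost with FPKM rescaled without short RNAs. That of DDX21 was lost as well with quantile normalization and in a fit to only the groups compared.

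Helicases of the small subunit fell as well. DDX10, needed for the processing of its RNA, went from 18.2 and 16.9 to 6.56 and 7.97 FPKM in HL60 (−1.17, SE 0.09, limma adjusted p = 3.09e-05) and from 16.1 and 16.3 to 12.1 and 12.2 in Kasumi-1 (−0.39, SE 0.09, limma adjusted p = 0.0223). DHX37, which frees the U3 guide RNA, went from 18.2 and 18.7 to 8.92 and 8.70 FPKM in HL60 (−0.99, SE 0.08, limma adjusted p = 4.01e-05). It went from 13.2 and 14.0 to 8.93 and 10.5 FPKM in Kasumi-1 (−0.45, SE 0.08, limma adjusted p = 0.0102). The treated libraries of both genes were below the untreated ones in each line. The Kasumi-1 fall of DDX10 was not called on leaving out any 1 Kasumi-1 library, and that of DHX37 without untreated replicate 2. DDX49, another helicase of the small subunit, went from 50.6 and 54.9 to 29.3 and 31.2 FPKM in HL60 and from 40.1 and 40.7 to 29.2 and 28.8 in Kasumi-1, log2 changes of −0.78 and −0.46 (limma adjusted p = 2.62e-05 and 0.00351).

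DDX18, a nucleolar helicase of growing cells, stood at 63.6 and 65.9 FPKM in untreated HL60 and 36.6 and 36.2 after cinobufagin (−0.81, SE 0.05, limma adjusted p = 1.33e-05). In Kasumi-1 it went from 46.3 and 49.8 to 36.2 and 36.9 FPKM (−0.39, SE 0.05, limma adjusted p = 0.00429). The treated libraries of the lines overlapped, while the untreated HL60 libraries were the highest. DDX54, a nucleolar helicase of the large subunit, went from 29.2 and 31.6 to 14.5 and 15.2 FPKM in HL60 (−0.99, SE 0.07, limma adjusted p = 2.92e-05). In Kasumi-1 its values were 22.4 and 23.3 FPKM untreated and 18.6 and 21.0 treated, a change of −0.20 that was not called (adjusted p = 0.0950, and 0.0176 with the replicate block). DDX51, a factor of early large subunit precursors, stood at 12.6 and 11.2 FPKM in untreated HL60 and 7.16 and 6.89 after the drug, and fell by 0.69 (SE 0.09, limma adjusted p = 0.000483). Kasumi-1 held 6.65 and 6.27 FPKM untreated and 6.59 and 5.63 treated, which overlap (change −0.07, adjusted p = 0.614).

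The remaining ribosome helicases had smaller estimates in HL60. DDX24, DDX27 and DDX56, of the large subunit, had HL60 changes of −0.15, −0.23 and −0.21 that passed the test. The 3 calls were lost with FPKM rescaled without short RNAs (adjusted p = 0.691, 0.461 and 0.659), where the estimate for DDX24 turned to 0.032. The DDX24 call was also lost on leaving out any 1 HL60 library, and that for DDX27 without untreated replicate 1 or treated replicate 2. In Kasumi-1, DDX24 and DDX56 fell by 0.21 and 0.16, calls lost in 5 and 12 of 16 settings. Leaving out untreated Kasumi-1 replicate 1, untreated replicate 2 or treated replicate 2 ended both, and for DDX56 so did any other library. The DDX27 estimate there was −0.13 (adjusted p = 0.206, and 0.0292 with the block). The HL60 estimate of DDX55 was −0.25 (adjusted p = 0.0531, and 0.00543 with the block), and its Kasumi-1 groups overlapped. DDX52 had a called fall in Kasumi-1 alone, −0.33 (SE 0.06, limma adjusted p = 0.0136), from 13.2 and 13.5 to 10.2 and 10.7 FPKM, and its difference between the lines was not called (adjusted p = 0.0678). The fall was not called without untreated replicate 1, untreated replicate 2 or treated replicate 1. DDX47 was not called in either line (−0.06 and −0.22).

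**Figure D2:**
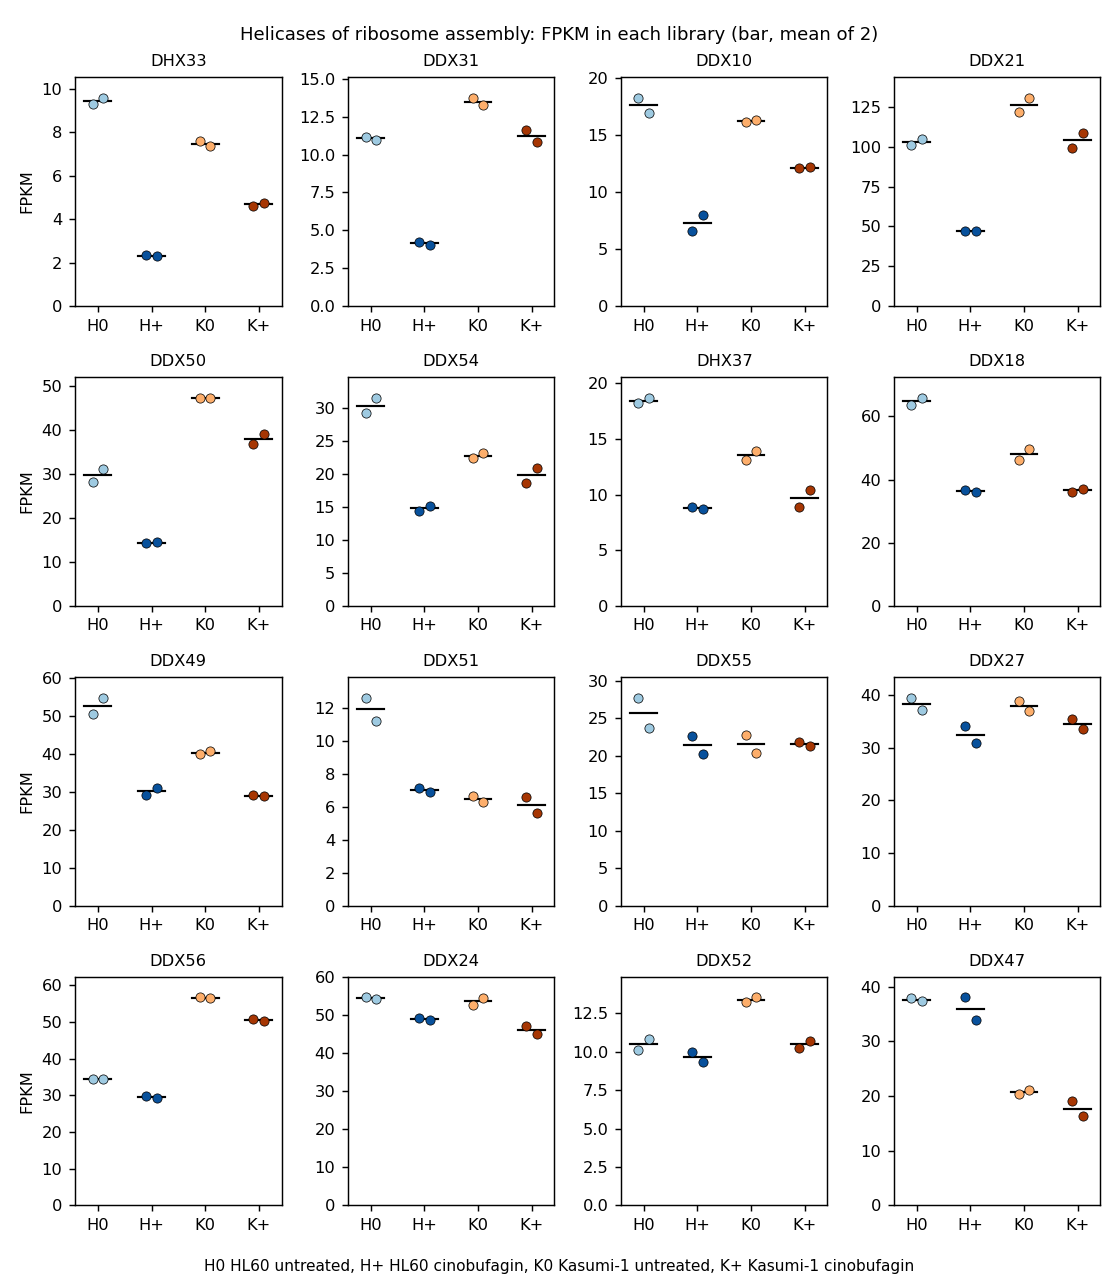
FPKM of the 16 helicases of ribosome assembly in each library, with points for libraries and a bar for the mean of 2. The vertical axis starts at 0 in each panel, and panels run from the largest to the smallest fall in HL60. In DHX33 the treated HL60 libraries lie at 2.34 and 2.28 FPKM against 9.29 and 9.57, while in DDX47, the last panel, the HL60 groups overlap.

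Whether the lines differed in these changes was tested directly. The difference, Kasumi-1 minus HL60, was above 0 for 10 of the 16 ribosome helicases and below 0 for 0 (limma adjusted p under 0.05; 1 below 0 at an unadjusted p under 0.05). Over all genes 30.1% were called above 0 and 33.1% below. The values were 1.08 for DHX33 (SE 0.08, limma adjusted p = 8.24e-05), 0.99 for DDX31 (SE 0.08, limma adjusted p = 0.000121), 0.84 for DDX21 (SE 0.09, limma adjusted p = 0.000281) and 0.79 for DDX54 (SE 0.10, limma adjusted p = 0.000777). With FPKM rescaled without short RNAs, 7 were above 0 and 3 below. DHX33, DDX31, DDX21, DDX10, DDX50, DDX51 and DDX54 kept their call in each of 15 settings.

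Other factors of the pre-ribosome moved with the helicases. All 15 genes of a list of assembly partners fell in HL60, with a median of −1.05, and 14 fell in Kasumi-1, with a median of −0.42 (against 37.6% and 16.2% of all tested genes). The list was written knowing that nucleolar genes fell in these data, so its direction is not independent evidence. RRP9, which binds the U3 guide RNA particle, went from 39.2 and 36.1 to 4.14 and 4.44 FPKM in HL60 and from 28.1 and 26.5 to 17.2 and 16.4 in Kasumi-1 (log2 −2.87 and −0.67). WDR12 and PES1, partners in the large subunit, fell by 1.82 and 1.46 in HL60 and by 0.42 and 0.53 in Kasumi-1. NCL, the abundant nucleolar protein nucleolin, went from 597 and 586 to 201 and 199 FPKM in HL60 and from 303 and 288 to 195 and 192 in Kasumi-1.

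The promoters of the ribosome helicases were searched for the letters of the E-box CACGTG, which MYC with MAX is known to bind. The search used RefSeq promoters of build GRCh38.p14, 250 bases before to 50 after a gene's start, and the motif reads the same on both strands. A promoter was listed for 50 of the 59 members, and 10 of these (20%) held the motif in any listed promoter. Of all genes with a listed promoter, tested here or not, 2396 of 27305 (8.77%) held it. The shares among all tested genes, or among all genes that fell in HL60, were not taken, so a like background is missing. Ribosome helicases held it in 4 of 12 with a promoter (33.3%) and the other tested members in 5 of 33 (15.2%). By the HL60 call, 7 of 22 members that fell (31.8%), 1 of 15 that rose (6.67%) and 1 of 8 not called (12.5%) held it. These shares describe letters, not binding, and rest on few genes.

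To show the match and its absence, the 250 bases before the start are printed 5′ to 3′ for 3 ribosome helicases with it, for DDX10, which fell as they did without it, and for DDX5, which rose in HL60 with it. The members were chosen after their values were seen. For genes with several listed promoters the one with the motif is shown, and capitals mark CACGTG. DDX21 is on chr10:68956397-68956646 (plus strand), DDX31 on chr9:132669984-132670233 (minus), DDX54 on chr12:113185479-113185728 (minus), DDX10 on chr11:108664819-108665068 (plus) and DDX5 on chr17:64506639-64506888 (minus).
DDX21: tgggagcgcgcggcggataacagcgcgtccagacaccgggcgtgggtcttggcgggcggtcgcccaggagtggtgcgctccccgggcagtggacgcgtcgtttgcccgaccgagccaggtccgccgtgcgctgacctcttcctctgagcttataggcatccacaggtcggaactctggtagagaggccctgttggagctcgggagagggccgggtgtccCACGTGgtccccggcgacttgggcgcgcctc
DDX31: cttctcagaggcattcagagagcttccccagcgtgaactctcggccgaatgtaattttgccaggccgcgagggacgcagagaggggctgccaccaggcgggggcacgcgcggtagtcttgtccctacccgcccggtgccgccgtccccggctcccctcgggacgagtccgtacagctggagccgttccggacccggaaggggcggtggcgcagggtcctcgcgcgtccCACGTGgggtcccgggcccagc
DDX54: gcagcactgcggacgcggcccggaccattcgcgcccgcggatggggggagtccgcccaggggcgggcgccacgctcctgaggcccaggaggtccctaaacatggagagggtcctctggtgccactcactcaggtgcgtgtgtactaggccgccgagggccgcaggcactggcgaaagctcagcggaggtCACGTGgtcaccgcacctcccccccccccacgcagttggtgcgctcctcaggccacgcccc
DDX10: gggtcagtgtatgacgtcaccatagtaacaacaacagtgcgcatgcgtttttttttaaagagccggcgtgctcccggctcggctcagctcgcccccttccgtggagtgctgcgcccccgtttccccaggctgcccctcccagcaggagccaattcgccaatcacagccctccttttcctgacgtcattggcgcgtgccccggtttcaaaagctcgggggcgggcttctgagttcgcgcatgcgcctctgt
DDX5: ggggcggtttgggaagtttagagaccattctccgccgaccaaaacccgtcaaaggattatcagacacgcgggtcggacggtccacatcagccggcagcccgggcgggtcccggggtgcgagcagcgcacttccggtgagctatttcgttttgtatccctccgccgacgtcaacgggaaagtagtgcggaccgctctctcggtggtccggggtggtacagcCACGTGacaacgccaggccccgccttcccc
The motif starts 31 bases before the start of transcription in DDX21, 22 in DDX31, 61 in DDX54 and 30 in DDX5. In DHX37 it starts at position 41 after the start and is not printed.

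The splicing helicases moved both ways. DHX8, DHX16, DHX38 and DHX15, the DEAH box proteins that drive the steps of splicing and take the spliceosome apart, rose in HL60. DDX42, DDX20, DDX41, DDX46 and DHX35 fell there, and DDX23 was not called. These HL60 shares, 40% higher and 50% lower, stand beside 36% and 37.6% of all tested genes. In Kasumi-1, 4 of the 10 fell (DDX20, DDX42, DDX46 and DHX15; 40%, against 16.2%) and the other 6 were not called. The HL60 median of the 10 was −0.14, and 0.04 with FPKM rescaled without short RNAs, where 4 rose and 2 fell.

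DHX8, which releases the spliced mRNA, went from 16.7 and 17.7 to 26.6 and 27.4 FPKM in HL60 (0.62, SE 0.05, limma adjusted p = 4.33e-05). Its Kasumi-1 values were 13.4 and 13.6 FPKM untreated and 14.2 and 14.1 treated (0.06, adjusted p = 0.413). DHX38, needed for the second step of splicing, went from 21.1 and 21.5 to 31.8 and 30.6 FPKM in HL60 (0.53, SE 0.05, limma adjusted p = 6.75e-05) and stood at 19.6 and 20.3 untreated and 18.5 and 18.5 treated in Kasumi-1 (−0.11, adjusted p = 0.147). In both genes the treated HL60 libraries were the highest of all 8. DHX16, which activates the spliceosome before the first step, went from 20.7 and 20.7 to 29.8 and 30.8 FPKM in HL60 (0.53, SE 0.05, limma adjusted p = 8.28e-05). Kasumi-1 held 11.3 and 11.2 FPKM untreated and 11.9 and 12.4 treated (0.10, adjusted p = 0.188), below every HL60 library.

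DHX15, which takes the spent spliceosome apart and also acts on pre-ribosomes, moved in opposite directions in the lines. It went from 82.2 and 82.2 to 98.6 and 90.5 FPKM in HL60 (0.20, SE 0.05, limma adjusted p = 0.0112) and from 74.8 and 74.8 to 63.9 and 64.5 in Kasumi-1 (−0.22, SE 0.05, limma adjusted p = 0.0254). The difference between the lines was −0.42 (SE 0.07, limma adjusted p = 0.00266) and was called in each setting run. The rise in HL60 alone was not called with quantile normalization (adjusted p = 0.0896), without untreated replicate 1 or without treated replicate 1. The fall in Kasumi-1 was lost in 7 of 16 settings, among them each in which 1 Kasumi-1 library was left out.

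DDX41, a splicing helicase mutated in some myeloid leukaemias, stood at 58.5 and 53.5 FPKM in untreated HL60 and 45.9 and 45.01 after cinobufagin (−0.29, SE 0.07, limma adjusted p = 0.00672). With FPKM rescaled without short RNAs this was not called (adjusted p = 0.0884). In Kasumi-1 the values were 43.2 and 39.4 FPKM untreated and 39.0 and 37.1 treated (−0.11, adjusted p = 0.261), and the groups did not overlap. DDX42, which binds the U2 particle, fell by 0.44 in HL60 and 0.17 in Kasumi-1, and DDX20, of the SMN complex that loads small nuclear RNAs, by 0.39 and 0.33. DDX46, which acts at the branch point, fell by 0.19 and 0.30. The Kasumi-1 call of DDX42 was lost in 12 of 16 settings, among them on leaving out any 1 of the 8 libraries, and that of DDX46 without untreated replicate 1, untreated replicate 2 or treated replicate 2. The HL60 calls of DDX46 and of DHX35 (−0.24) were lost with FPKM rescaled without short RNAs (adjusted p = 0.887 and 0.376). DHX35 was also lost on leaving out any 1 HL60 library, and DDX46 without untreated or treated replicate 2. DDX23, which swaps U1 for U6, had estimates of −0.09 and −0.11 (adjusted p = 0.109 and 0.111, and 0.0355 and 0.0348 with the block).

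Among the 10 tested helicases of export, translation and decay, 5 rose and 3 fell in HL60 (50% and 30%, against 36% and 37.6% of all tested genes), and 3 fell in Kasumi-1 (30%, against 16.2%). DDX3X, which opens structured leaders of mRNAs for translation, had the second largest rise of all members. It stood at 54.9 and 60.0 FPKM in untreated HL60 and at 149.6 and 165 after cinobufagin, which is 1.44 on the log2 scale (SE 0.11, limma adjusted p = 2.96e-05). In Kasumi-1 the values were 60.4 and 67.2 FPKM untreated and 56.8 and 68.4 treated and overlapped (−0.03, 95% interval −0.29 to 0.23, adjusted p = 0.867). The difference between the lines was −1.47 (SE 0.15, limma adjusted p = 0.000270), the largest below 0 among the members. DDX3X has a closely similar copy outside the members, so its reads may be split.

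DDX6, which represses translation and promotes mRNA decay in P-bodies, went from 20.0 and 25.4 to 44.7 and 55.8 FPKM in HL60 (1.11, SE 0.21, limma adjusted p = 0.00267). Kasumi-1 held 18.9 and 24.9 FPKM untreated and 20.5 and 28.1 treated (0.14, adjusted p = 0.676), and these overlap. In all 4 groups replicate 2 was the higher, and the SE was the largest of all members. The difference between the lines, −0.97 (SE 0.30, limma adjusted p = 0.0263), was not called without untreated HL60 replicate 1, treated HL60 replicate 2, untreated Kasumi-1 replicate 2 or treated Kasumi-1 replicate 1, or with no filter.

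DDX39B and DDX39A are close paralogues that load export factors onto spliced mRNA. DDX39B went from 141 and 137 to 231 and 217 FPKM in HL60 (0.68, SE 0.06, limma adjusted p = 6.24e-05), and stood at 132 and 122 untreated and 115 and 111 treated in Kasumi-1 (−0.16, adjusted p = 0.0884, and 0.0112 with the block). DDX39A rose from 99.1 and 94.99 to 114 and 112 FPKM in HL60 (0.22, SE 0.05, limma adjusted p = 0.00838), and fell in Kasumi-1 from 87.6 and 83.9 to 75.2 and 70.4 (−0.23, SE 0.05, limma adjusted p = 0.0223). Without untreated HL60 replicate 2 the rise of DDX39A was not called, and its Kasumi-1 fall was not called without untreated replicate 1, untreated replicate 2 or treated replicate 2. That fall was also not called with median ratio scaling or in a fit to only the groups compared. The difference between the lines was −0.85 for DDX39B and −0.45 for DDX39A (limma adjusted p = 0.000231 and 0.00211). Reads of such similar genes may be assigned to either.

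DDX19A and DDX19B, adjacent copies of the helicase that frees mRNA at the nuclear pore, fell in HL60. DDX19A went from 28.4 and 27.6 to 18.8 and 17.7 FPKM in HL60 (−0.59, SE 0.05, limma adjusted p = 8.26e-05) and DDX19B from 20.1 and 19.9 to 15.02 and 16.4 (−0.33, SE 0.07, limma adjusted p = 0.00492). The DDX19B call was lost with FPKM rescaled without short RNAs (adjusted p = 0.118). Kasumi-1 held 23.4 and 22.5 FPKM untreated and 21.3 and 20.2 treated of DDX19A (−0.14, adjusted p = 0.108, and 0.0252 with the block). For DDX19B it held 16.4 and 17.01 untreated and 15.1 and 13.4 treated (−0.22, adjusted p = 0.0686). Treated libraries were below the untreated ones in both lines for both copies.

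DDX1, part of the tRNA ligase complex, fell in both lines, from 70.4 and 66.7 to 39.2 and 35.9 FPKM in HL60 (−0.85, SE 0.06, limma adjusted p = 1.74e-05) and from 66.1 and 65.1 to 46.5 and 46.4 in Kasumi-1 (−0.49, SE 0.06, limma adjusted p = 0.00309). DHX36, which unfolds G-quadruplexes, rose by 0.36 in HL60, with an estimate of −0.04 in Kasumi-1 (adjusted p = 0.00304 and 0.694). DHX34, a factor of nonsense-mediated decay, was not called in HL60 (−0.10) and fell by 0.27 in Kasumi-1 (SE 0.06, limma adjusted p = 0.0216). Its call was lost without untreated replicate 1, untreated replicate 2 or treated replicate 1. The same call was lost with FPKM rescaled without short RNAs and in a fit to only the groups compared. DHX29, which helps the ribosome scan structured leaders, had an estimate of 0.20 in HL60 (adjusted p = 0.0862, and 0.0134 with the block) and −0.03 in Kasumi-1.

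The 3 co-regulators of transcription were among the more abundant members and rose in HL60, where 36% of all tested genes were called higher. DDX5 went from 177 and 163 to 246 and 229.6 FPKM there (0.48, SE 0.08, limma adjusted p = 0.00147), and Kasumi-1 held 206 and 185 untreated and 199.9 and 184 treated (−0.03, 95% interval −0.22 to 0.17). Its paralogue DDX17 was the only member called higher in both lines, from 109.9 and 112 to 133 and 131 FPKM in HL60 (0.25, SE 0.05, limma adjusted p = 0.00450) and from 99.0 and 105 to 114 and 121 in Kasumi-1 (0.20, SE 0.05, limma adjusted p = 0.0339). The Kasumi-1 call was lost in 11 of 16 settings, among them on leaving out any 1 of the 8 libraries, and the HL60 call with quantile normalization (adjusted p = 0.0663). DHX9, which bridges RNA polymerase II and its partners, rose in HL60 from 76.5 and 79.9 to 97.1 and 97.0 FPKM (0.31, SE 0.05, limma adjusted p = 0.000775). It fell in Kasumi-1 from 75.0 and 78.1 to 66.3 and 67.2 (−0.20, SE 0.05, limma adjusted p = 0.0240), a call lost in 8 of 16 settings, among them each without 1 Kasumi-1 library. The DHX9 difference between the lines was −0.50 (SE 0.06, limma adjusted p = 0.000656) and was called in each setting run.

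**Figure D3:**
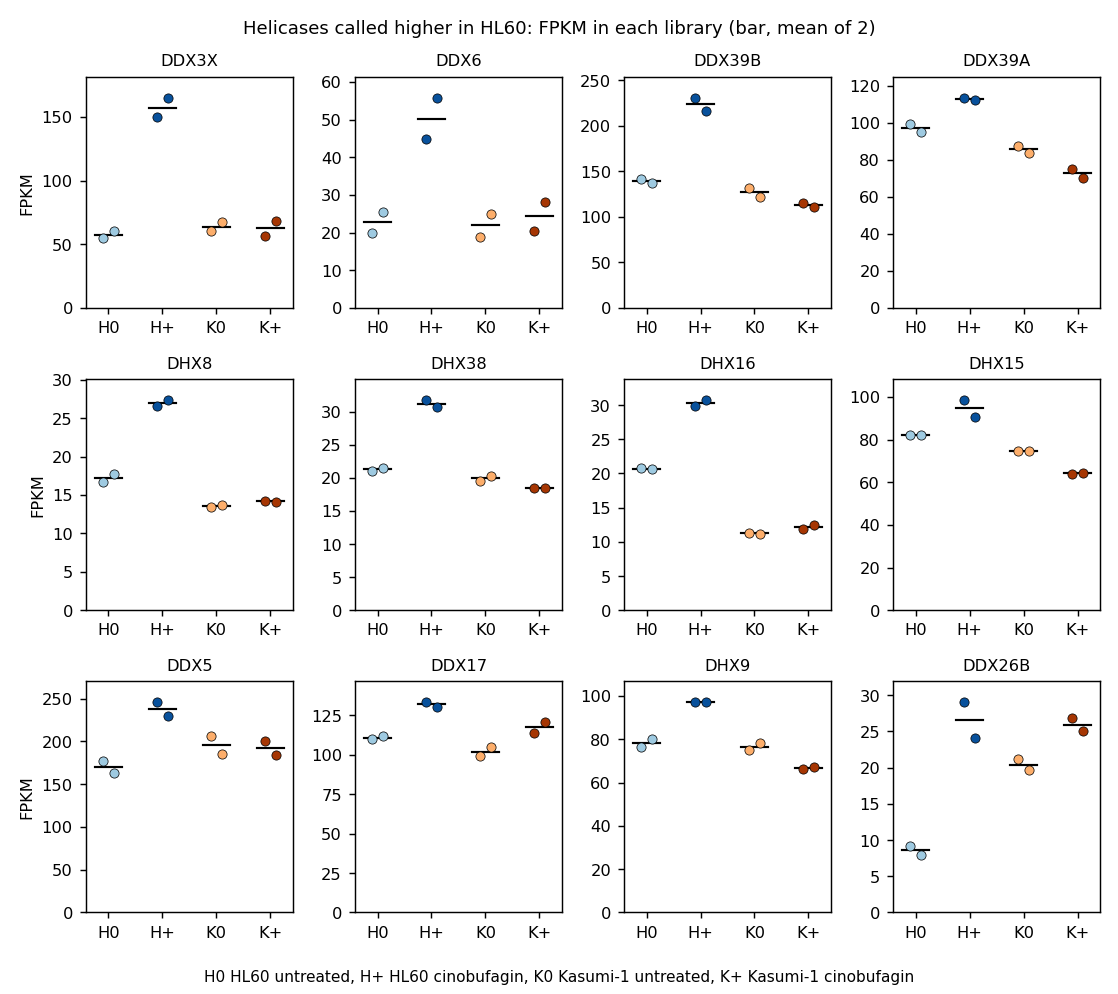
FPKM in each library of 12 members called higher in HL60, with points for libraries and a bar for the mean of 2, and the vertical axis from 0. DDX3X rises from 54.9 and 60.0 to 149.6 and 165 FPKM in HL60 while its Kasumi-1 groups overlap, and DDX39A, DHX15 and DHX9 are higher with the drug in HL60 and lower in Kasumi-1.

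The sensors of viral RNA were low in both lines. DHX58 (LGP2) went from 1.32 and 1.28 FPKM in untreated HL60 to 0.0967 and 0.155 after cinobufagin (−1.03, SE 0.13, limma adjusted p = 0.000338), and stood at 2.18 and 1.42 untreated and 1.32 and 1.24 treated in Kasumi-1 (−0.28, adjusted p = 0.151). DDX58, the sensor RIG-I (now RIGI), stood at 1.24 and 1.41 FPKM untreated and 1.08 and 1.03 treated in HL60 (−0.18, adjusted p = 0.0683). In Kasumi-1 it was at 0.863 and 0.739 FPKM untreated and 0.825 and 0.724 treated (−0.02, adjusted p = 0.872). At such levels the log2(FPKM + 1) scale understates a change. DDX60L rose from 2.65 and 2.80 to 4.79 and 4.45 FPKM in HL60 (0.59, SE 0.10, limma adjusted p = 0.00133), and had 1.36 and 1.78 untreated and 1.15 and 1.29 treated in Kasumi-1 (−0.21, adjusted p = 0.163). Its close copy DDX60 was below the filter, with 0.0523 and 0.0740 FPKM in untreated HL60 and 0.0596 and 0.0273 after the drug. Kasumi-1 held 0.792 and 0.851 FPKM of DDX60 untreated and 0.459 and 0.430 treated, above every HL60 library. Of 10 tested interferon response genes, 5 rose and 2 fell in HL60 (50% and 20%, against 36% and 37.6% of all tested genes). In Kasumi-1, 2 rose and 3 fell (20% and 30%, against 10.1% and 16.2%). TRIM25, which activates RIG-I, rose by 1.65 in HL60, and IRF7 by 1.53, while IFIT3 fell by 0.77. In Kasumi-1 IRF7 rose by 0.79 and STAT2 by 0.32, while IFIT1 fell by 1.18 and IFIT2 by 0.36.

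Of the mitochondrial helicases, DDX28, which assembles the mitochondrial ribosome, fell from 15.1 and 13.8 to 6.18 and 5.51 FPKM in HL60 (−1.18, SE 0.09, limma adjusted p = 3.07e-05). In Kasumi-1 it fell from 8.20 and 8.17 to 5.70 and 4.92 (−0.54, SE 0.09, limma adjusted p = 0.00797). DHX30, which acts in the same granules, was not called with the drug in either line (−0.06 and 0.01, adjusted p = 0.261 and 0.859). The treated DDX28 libraries of the lines overlap.

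DDX11, a DNA helicase of sister chromatid cohesion, stood at 35.1 and 32.3 FPKM in untreated HL60 and 31.1 and 28.0 after the drug (−0.18, adjusted p = 0.0783, and 0.00407 with the block). It was at 16.4 and 14.9 FPKM untreated and 15.6 and 14.6 treated in Kasumi-1 (−0.05, adjusted p = 0.694). The pseudogene row DDX12P had estimates of 0.02 in HL60 and 0.03 in Kasumi-1 (adjusted p = 0.859 and 0.841).

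Of the less studied members, DDX26B had the largest rise of all. Now named INTS6L, it is a paralogue of a subunit of the Integrator complex and is counted as a helicase here only by its former symbol. The counts were not repeated without DDX26B. It went from 9.21 and 7.94 to 29.0 and 24.1 FPKM in HL60 (1.52, SE 0.11, limma adjusted p = 2.27e-05), and stood at 21.1 and 19.7 FPKM untreated and 26.8 and 25.1 treated in Kasumi-1 (0.33, adjusted p = 0.0656, and 0.00733 with the block). The treated libraries of the lines overlapped, while untreated HL60 was below untreated Kasumi-1. DHX32 fell in HL60 from 11.0 and 12.1 to 5.83 and 5.41 FPKM (−0.92, SE 0.08, limma adjusted p = 5.01e-05), while its Kasumi-1 values of 14.6 and 14.6 untreated and 15.1 and 13.5 treated overlapped (−0.03, 95% interval −0.21 to 0.16). The difference of 0.89 for DHX32 (SE 0.11, limma adjusted p = 0.000557) was called in each setting run. DHX40 fell by 0.54 and 0.22 and DHX57 by 0.35 and 0.29 in HL60 and Kasumi-1, with the Kasumi-1 calls lost in 10 of 16 and 9 of 15 settings, among them on leaving out any 1 Kasumi-1 or untreated HL60 library. The HL60 call of DHX57 was lost with FPKM rescaled without short RNAs (adjusted p = 0.0938). DDX59 rose by 0.29 in HL60, a call lost on leaving out any 1 HL60 library, with an estimate of 0.04 in Kasumi-1.

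The germline helicases were silent or nearly so. DDX4 (VASA) and DDX53 were listed at 0 in all 8 libraries. DDX43 lay at 0.157 and 0.196 FPKM in untreated HL60 and at 0.398 and 0.258 after the drug, and at 0.0232 and 0.0211 untreated and 0.0285 and 0.0214 treated in Kasumi-1. DDX25, known from testis, was listed above 0 in 1 untreated library of each line, at 0.0345 FPKM in HL60 and 0.0358 in Kasumi-1. The highest value of DDX11L2, DDX11L9 and DDX11L10 was 0.460 FPKM, for DDX11L2 in untreated HL60.

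Set side by side, most members called in Kasumi-1 had the same call in HL60. Of the 51 members, 17 fell in both lines (33.3%, against 10.6% of all tested genes), 9 had a called fall in HL60 alone and 2, DHX34 and DDX52, in Kasumi-1 alone. DDX17 was called higher in both, and 11 had a called rise in HL60 alone. Opposite calls were found for DDX39A, DHX15 and DHX9 (3 of 51, 5.88%, against 2.11% of all tested genes), and 8 were called in neither line. Both counts depended on single Kasumi-1 libraries and on scaling. The count that fell in both lines was 8 without untreated Kasumi-1 replicate 1 (5.79% of all tested genes), 7 without untreated replicate 2 (5.61%) and 9 without treated replicate 1 (6.25%) or treated replicate 2 (6.97%). It was 11 without untreated HL60 replicate 1, 10 without untreated HL60 replicate 2, and 9 after rescaling without short RNAs (8.25% of all tested genes). The 3 opposite calls became 0 with median ratio scaling and without untreated Kasumi-1 replicate 1, untreated replicate 2 or treated replicate 2. DDX39A alone was left without treated Kasumi-1 replicate 1 or with quantile normalization. The difference of the changes was called for 30 members (58.8%, against 63.1% of all genes): 17 above 0 and 13 below. A difference of at least 2-fold was found for 1 member above 0 (DHX33) and 2 below (DDX3X and DDX26B), against 11.1% and 10.3% of all tested genes. With FPKM rescaled without short RNAs the all-gene median of the difference moved from −0.03 to −0.21, and 11 members were above 0 and 20 below. Of the members' calls 35.5% were then above 0, against 56.7% before, and of the calls over all tested genes 37.5%, against 47.6%. With the replicate block, 19 were above 0 and 14 below, with DDX41 and DDX55 above (adjusted p = 0.0265 and 0.0248) and DHX29 below (0.0345) among the calls added. Calls over all tested genes then went to 4150 above 0 and 4601 below, from 3761 and 4136.

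**Figure D4:**
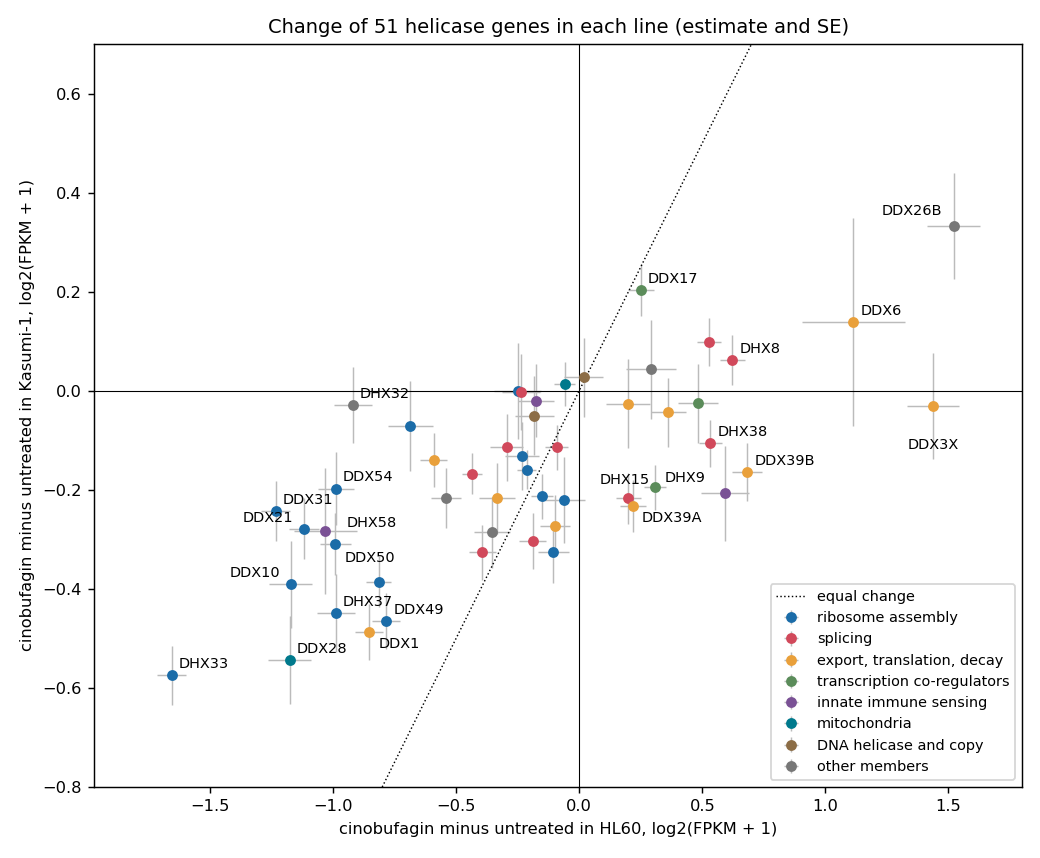
Log2(FPKM + 1) change with cinobufagin in HL60 (horizontal) and Kasumi-1 (vertical) for the 51 tested members, with bars of 1 SE and colours for role. The dotted line marks equal change. Blue points of ribosome assembly lie left of 0 and at or below 0, with DHX33, DDX31 and DDX21 far above the line of equal change, while DDX3X and DDX39B lie far right at or below 0 in Kasumi-1.

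The untreated lines differed in 34 members, 15 higher and 19 lower in Kasumi-1 (66.7%, against 69.7% of all tested genes, 35.9% higher and 33.8% lower). By at least 2-fold, 2 were higher (DHX29 and DDX26B) and 2 lower (DDX12P and DDX11), against 13.8% and 10.2% of all tested genes. DHX29 had the largest excess in Kasumi-1, 12.7 and 14.6 against 3.56 and 3.95 FPKM (1.62, SE 0.09, limma adjusted p = 7.79e-06). DDX26B stood at 21.1 and 19.7 against 9.21 and 7.94 FPKM (1.16, SE 0.11, limma adjusted p = 8.86e-05). DDX56 had 56.7 and 56.6 against 34.4 and 34.6 FPKM and DHX30 42.6 and 41.1 against 25.5 and 25.3, and both differed by 0.70. DDX50 differed by 0.66. Each of these was higher in both untreated Kasumi-1 libraries.

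Lower in Kasumi-1 were DDX12P, 7.75 and 7.35 against 28.1 and 25.3 FPKM (−1.69, SE 0.08, limma adjusted p = 3.61e-06), and the gene it resembles, DDX11 (−1.06, SE 0.08, limma adjusted p = 3.38e-05). Reads of these 2 rows may be split, so that their differences are not separate results. DDX47, not called with the drug, had 20.3 and 21.1 against 37.9 and 37.4 FPKM (−0.83, SE 0.09, limma adjusted p = 0.000159). DHX16 differed by −0.82 and DDX51 by −0.79. The 16 ribosome helicases had no common direction here: 5 were higher and 7 lower in Kasumi-1. Of the untreated levels, DDX5 was the highest in both untreated groups (170.0 ± 10.4 and 196 ± 14.6 FPKM, mean ± SD, n = 2), followed by DDX39B in both (139 ± 3.3 and 127 ± 7.2). DDX21 came next in Kasumi-1 (126 ± 6.2), within the spread of DDX39B there, and DDX17 in HL60 (111 ± 1.3). With the replicate block, DDX17, DDX39B, DDX55 and DHX15 were also called lower in untreated Kasumi-1 (adjusted p = 0.0304, 0.00948, 0.00716 and 0.0279), and DDX3X and DDX5 higher (0.0201 and 0.00102).

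**Figure D5:**
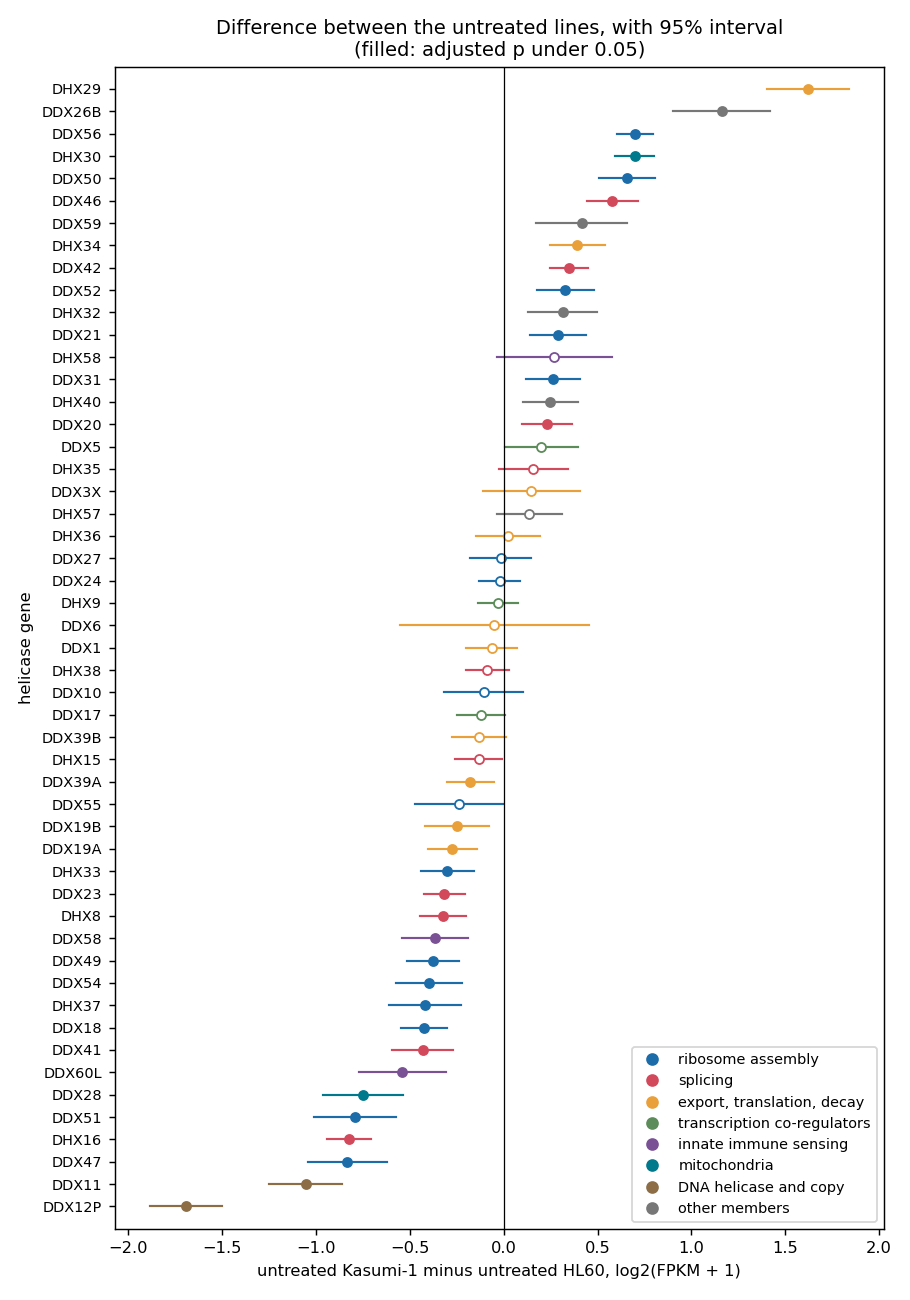
Difference between untreated Kasumi-1 and untreated HL60 in log2(FPKM + 1) for the 51 tested members, with 95% intervals and colours for role, filled where the adjusted p is under 0.05. DHX29 and DDX26B lie farthest to the right, DDX12P and DDX11 farthest to the left, and ribosome helicases lie on both sides of 0.

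RNA helicases whose symbols lack the DDX or DHX prefix moved both ways in HL60. Of 18 tested, 9 rose and 5 fell in HL60 (50% and 27.8%, against 36% and 37.6% of all tested genes). In Kasumi-1, 1 rose and 5 fell (5.56% and 27.8%, against 10.1% and 16.2%). ZNFX1 rose from 4.87 and 5.20 to 11.4 and 11.5 FPKM in HL60, and UPF1, the helicase of nonsense-mediated decay, by 0.62. MOV10 rose by 0.67. SUPV3L1, which degrades mitochondrial RNA, fell by 1.30 in HL60 and 0.32 in Kasumi-1, and ASCC3 by 0.86 and 0.47. The translation helicase EIF4A2 went from 185 and 171 to 91.4 and 86.1 FPKM in HL60 (−0.997). Its paralogue EIF4A1 fell in both lines, from 272 and 259.8 to 205 and 199 FPKM in HL60 (−0.39) and from 325 and 319 to 246 and 240.5 in Kasumi-1 (−0.41). IFIH1, the sensor MDA5, rose by 0.58 in HL60 and 0.43 in Kasumi-1.

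Among 19 tested proteins that bind and switch on such helicases, 12 rose and 6 fell in HL60 (63.2% and 31.6%, against 36% and 37.6% of all tested genes). In Kasumi-1, 1 rose and 4 fell (5.26% and 21.1%, against 10.1% and 16.2%). GPATCH4, a nucleolar G-patch protein, had the largest fall of them, from 36.9 and 33.7 to 8.42 and 7.93 FPKM in HL60 (−1.98) and from 29.5 and 27.8 to 15.2 and 15.1 in Kasumi-1 (−0.88). NKRF, a G-patch partner of DHX15, fell by 1.01 and 0.59. RBM5, a G-patch splicing factor, rose from 43.5 and 40.7 to 100.3 and 91.6 FPKM in HL60 (1.17) and from 41.0 and 38.6 to 56.4 and 53.9 in Kasumi-1 (0.46). GPATCH8 and CNOT1, the scaffold that recruits DDX6, rose by 0.75 and 0.74 in HL60. GLE1, the partner of DDX19, fell by 0.62 there, and EIF4G1, the scaffold of EIF4A, by 0.58 in HL60 and 0.34 in Kasumi-1.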

How the data were processed

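RNA sequencing libraries of HL60 and Kasumi-1 cells with and without cinobufagin were used, 2 per group in 4 groups. The authors deposited 1 table of FPKM per gene and library, made with bcl2fastq 2.20.0, HISAT2 2.1.0, Cufflinks 2.2.1 and build hg19, per the submitters' processing notes. For annotation, strand setting and filters: not given in the sources used here. The table holds no counts, so absolute depth is unknown, and relative depth was read from the steps between low values. Genes with at least 1 FPKM in 2 or more libraries (12511 of 25593 rows) were tested with limma 3.58.1 in R 4.3.3 on log2(FPKM + 1), with a mean per group over all 8 libraries, a trend in the variance, 4 residual degrees of freedom and Benjamini-Hochberg adjustment over all tested genes. Fold changes on this scale understate those of low genes. A permutation of 2 against 2 libraries cannot go below a two-sided p of 0.33, so none was used. The helicases, gene lists and tests were chosen with earlier results of these data known. Every helicase is named, and values by library are given for the largest called changes per direction (8 in HL60, 6 in Kasumi-1, 5 for the difference and 5 between the untreated lines) and for preset genes. From other lists up to 3 genes per direction and line with the smallest adjusted p are named, with a few more of these chosen after their values were seen.

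The labels do not say what the replicate number marks. Deviations of same-numbered libraries from their group means correlated in all 6 pairs of groups, with r of 0.125 to 0.331 over all tested genes. For the 51 tested members r was 0.353 to 0.649. The number was therefore taken to pair the libraries. The main fit had no block, and a fit with the number as a block was an alternative. Other alternatives were a pseudocount of 0.1, no filter, a filter at 5 FPKM, median ratio scaling, quantile normalization, FPKM rescaled without short RNAs, each library left out, and a fit to only the groups compared. Promoter sequences are from RefSeq (GRCh38.p14).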

Additional observations from a re-analysis of the deposited data

Results flagged for a closer look

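For 30 helicases the change with cinobufagin differed between the lines by the test of the difference itself (Kasumi-1 minus HL60, limma adjusted p under 0.05), a share of 58.8% against 63.1% of all tested genes. Among those with a positive difference, the ribosome helicases had 1.08 (DHX33), 0.99 (DDX31), 0.84 (DDX21), 0.79 (DDX54), 0.78 (DDX10), 0.68 (DDX50), 0.61 (DDX51), 0.54 (DHX37), 0.43 (DDX18) and 0.32 (DDX49). Positive too were DHX32 at 0.89, DHX58 at 0.75, DDX28 at 0.63, DDX19A at 0.45, DDX1 at 0.37, DHX40 at 0.33 and DDX42 at 0.27. All 17 of these fell in HL60.

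A negative difference was found for DDX3X (−1.47), DDX26B (−1.19), DDX6 (−0.97), DDX39B (−0.85), DDX60L (−0.80) and DHX38 (−0.64). The others were DHX8 (−0.56), DDX5 (−0.51), DHX9 (−0.50), DDX39A (−0.45), DHX16 (−0.43), DHX15 (−0.42) and DHX36 (−0.41). All 13 of these rose in HL60, and DDX39A, DHX9 and DHX15 fell in Kasumi-1. With FPKM rescaled without short RNAs, the calls for DDX1, DDX18, DDX42, DDX49, DHX37 and DHX40 were lost. With 2 libraries a group, no group was large enough to look for a single library that stands apart.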

How the results depend on the processing

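In HL60, 29 of the 41 helicase calls held in every setting run, as did 6 of 23 in Kasumi-1, 23 of 30 for the difference and 30 of 34 between the untreated lines. With FPKM rescaled without short RNAs, the HL60 estimate of DDX24 turned to 0.032 and the median difference between the lines to −0.13, against 0.07. That setting gave 0 higher and 14 lower in Kasumi-1, and a difference above 0 for 11 members and below 0 for 20. Among all tested genes it gave 762 higher and 1671 lower in Kasumi-1, and a difference above 0 for 2852 and below 0 for 4753. It divides each library by its summed FPKM without short RNAs, so that all other rows reach the same total in each library. In Kasumi-1, with 1 higher and 22 lower, median ratio scaling gave 2 and 14, and quantile normalization 0 and 17. The replicate block gave 2 higher and 27 lower, and a fit to only the groups compared 11 lower. Falls over all tested genes moved as well, from 2026 to 1595 with median ratio scaling and 1793 with quantile normalization. They were 2882 with the block and 1152 of 11447 genes with only the groups compared. Leaving out 1 library gave 7 to 20 lower and 0 to 1 higher in Kasumi-1, with fewer libraries in the fit. What caused the shifts between settings was not tested.

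With the replicate number as a block, HL60 had 16 higher and 29 lower, the difference 19 above and 14 below 0, and the untreated lines 17 higher and 23 lower, and all calls without the block were kept. Calls over all tested genes rose too, from 9212 to 9787 in HL60 and from 7897 to 8751 for the difference. Between the untreated lines they rose from 8722 to 9548. The files give no counts, so a counting error cannot be set beside each FPKM, and 2 libraries a group limit the precision.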
